A study of Mus musculus with 6 samples.

Results

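The 8 acetylcholine receptor genes described here are the muscarinic genes Chrm1, Chrm2, Chrm3 and Chrm4 and the nicotinic subunit genes Chrna4, Chrna5, Chrna7 and Chrnb2. They were chosen by symbol, through the Ensembl gene ID that each deposited file gives, and all 8 were found among the 15939 genes of the series. The study took nucleus accumbens, the part of the ventral striatum best known for its role in reward, from C57BL/6N mice after conditioned place preference training, in which an injection is paired with a compartment. One group had received saline and the other morphine, an opioid receptor agonist, with 3 libraries in each. The design text gives 6 mice per group and does not say which mice went into which library, so each library may be a pool, and p-values measure only the spread between libraries. The sources used here do not give doses, injection schedule, sex or age.

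Acetylcholine in the striatum comes mainly from a small population of cholinergic interneurons. Muscarinic receptors are G protein-coupled: the Chrm1 and Chrm3 products act through Gq, which raises calcium through phospholipase C, and the Chrm2 and Chrm4 products act through Gi, which lowers cAMP. In the striatum the Chrm1 and Chrm4 products are known from medium spiny neurons and the Chrm2 product as an autoreceptor of cholinergic interneurons. Nicotinic receptors are ion channels of 5 subunits. The Chrna4 and Chrnb2 products form the main high-affinity receptor of the brain, found on dopamine terminals, the Chrna5 product is an accessory subunit of it, and the Chrna7 product forms channels by itself.

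Each deposited file is a catalogue of events in the transcripts assembled from 1 library. A first exon event is the exon at which an assembled transcript starts, named by the splice site at its far end; a last exon event is the exon at which it stops, named by the splice site at its near end. A skipping event is an exon that some transcripts contain and others leave out. The measure is how many distinct events a library lists for a gene, which is not an expression level. A gene that a catalogue does not list is not shown to be silent, and where fewer transcripts of a gene were assembled, fewer expressing cells and less RNA per cell cannot be told apart. The 6 libraries listed between 54641 and 58007 distinct events in 14121 to 14791 genes, and their read depth is unknown. Coordinates are on GRCm38, the build on which 65.3% of all listed events match GENCODE M21 exons.

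Sequences from listed exons and from promoters are given first. Each of the 4 muscarinic genes has a listed last exon that holds the whole annotated coding sequence, and Chrm1 and Chrm3 each have 1 more, listed in 1 library, that holds none of it. The coding last exon begins 71 bases before the start codon in Chrm1, 40 in Chrm2, 19 in Chrm3 and 32 in Chrm4, and the first 60 coding bases are shown because none of the muscarinic splicing events listed below falls inside them. Capitals mark the start codon, and the stretches lie at chr19:8677933-8677992 (plus strand), chr6:36523210-36523269 (plus strand), chr13:9878939-9878998 (minus strand) and chr2:91927249-91927308 (plus strand).
Chrm1: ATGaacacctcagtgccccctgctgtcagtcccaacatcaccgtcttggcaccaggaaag
Chrm2: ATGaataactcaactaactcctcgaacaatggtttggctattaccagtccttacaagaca
Chrm3: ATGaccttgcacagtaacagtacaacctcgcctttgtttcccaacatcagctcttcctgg
Chrm4: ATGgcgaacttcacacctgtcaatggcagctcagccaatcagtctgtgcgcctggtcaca
Between 15 (Chrm3 and Chrm4) and 21 of the 60 bases were identical, position by position, in each pair of these genes. The stretches were not aligned and the shared start codon is counted, so these numbers do not measure how alike the genes are.

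The nicotinic coding sequences are split over several exons, with at most 7 coding exons in a Chrna4 transcript, 6 in Chrna5 and Chrnb2 and 10 in Chrna7. The last exons of Chrna4, Chrna7 and Chrnb2 were listed from the same splice site in all 6 libraries. Their first 60 bases, all coding, are shown with the 10 bases after the splice site in capitals, at chr2:181024820-181024879, chr7:63099683-63099742 and chr3:89757211-89757270, each on the minus strand.
Chrna4: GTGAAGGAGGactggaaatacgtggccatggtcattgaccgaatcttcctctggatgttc
Chrna7: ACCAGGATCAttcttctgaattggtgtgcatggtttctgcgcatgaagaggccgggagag
Chrnb2: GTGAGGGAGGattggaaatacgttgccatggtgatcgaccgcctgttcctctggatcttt
Chrna5 was listed with starts at internal coding exons, and the coding stretches of both are shown with the 10 bases before the splice site in capitals, at chr9:55000452-55000496 (saline replicate 3) and chr9:55002418-55002509 (morphine replicate 6), both on the plus strand.
Chrna5, earlier exon: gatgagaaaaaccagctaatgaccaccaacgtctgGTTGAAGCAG
Chrna5, later exon: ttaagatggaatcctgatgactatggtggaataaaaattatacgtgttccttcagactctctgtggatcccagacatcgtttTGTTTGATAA

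The promoters of 3 genes are shown, those of Chrm2, Chrm4 and Chrnb2. Each gene has at least 1 listed first exon, described below, that is not annotated in the gene and begins upstream of its RefSeq start. In some cases it begins outside the stretch shown. Chrm3 and Chrna4, both on the minus strand, also had first exons listed from upstream of their RefSeq starts, but at annotated splice sites. They began at 10360844 against 10360803 and at 181039305 against 181039177. Each promoter shown runs from 250 bases before the RefSeq transcript start to 50 bases after it (RefSeq, GRCm38.p6). Capitals mark the 50 bases from the RefSeq start on, and some listed first exons of Chrm2 and Chrm4 also cover lower-case bases. The stretches lie at chr6:36387834-36388133 (plus strand), chr2:91921939-91922238 (plus strand) and chr3:89764583-89764882 (minus strand).
Chrm2: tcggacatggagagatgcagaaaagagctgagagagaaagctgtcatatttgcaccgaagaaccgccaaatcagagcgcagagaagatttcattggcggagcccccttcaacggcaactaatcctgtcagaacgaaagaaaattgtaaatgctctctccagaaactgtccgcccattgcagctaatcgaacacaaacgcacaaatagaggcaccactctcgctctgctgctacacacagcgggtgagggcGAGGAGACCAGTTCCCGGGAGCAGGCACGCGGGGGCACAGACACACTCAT
Chrm4: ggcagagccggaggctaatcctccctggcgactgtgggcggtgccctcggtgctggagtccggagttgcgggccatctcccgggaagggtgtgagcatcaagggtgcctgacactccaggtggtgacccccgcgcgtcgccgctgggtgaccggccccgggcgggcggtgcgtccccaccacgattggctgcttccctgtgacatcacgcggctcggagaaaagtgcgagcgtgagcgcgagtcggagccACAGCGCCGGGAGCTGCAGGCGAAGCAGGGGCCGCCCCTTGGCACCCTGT
Chrnb2: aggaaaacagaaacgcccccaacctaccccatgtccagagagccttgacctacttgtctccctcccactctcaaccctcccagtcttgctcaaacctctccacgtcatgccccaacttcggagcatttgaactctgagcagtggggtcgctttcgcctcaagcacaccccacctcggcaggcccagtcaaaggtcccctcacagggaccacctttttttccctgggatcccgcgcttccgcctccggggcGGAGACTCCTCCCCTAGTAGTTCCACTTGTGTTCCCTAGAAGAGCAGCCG
RefSeq promoters were at hand for 7 of the 8 genes, with 2 for Chrna5. Their GC content ran from 41.3% at the first Chrna5 start to 74.3% at Chrna4, against a median of 53% over 32544 promoters. The GC box GGGCGG, counted on both strands, was found 4 times in the Chrm4 promoter, 3 times in Chrna4 and 1 time each in Chrm2, Chrna7 and Chrnb2, and 35.9% of all promoters hold it. The later Chrna5 promoter held it 4 times, and the earlier one and that of Chrm3 held 0 copies. The TATA box TATAAA, which 13.6% of all promoters hold, was in 0 of these promoters. A match is a description of the letters, not a bound site.

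Events of the 8 genes summed to 18, 14 and 19 in the saline libraries and to 15 in each morphine library, or 17 ± 2.65 and 15 ± 0 (SD, n = 3 each). The groups overlapped, since saline replicate 2 lay below the morphine libraries. The muscarinic genes summed to 11, 8 and 11 after saline against 9, 9 and 7 after morphine, and the nicotinic genes to 7, 6 and 8 against 6, 6 and 8. One of the 8 genes, Chrm2, had more events in every saline library than in any morphine library. Over 15040 tested genes the same held for 1.43%. In 0 of the 8 genes did every morphine library lie above, against 1.64% of tested genes, so 1 of the 8 did not overlap in either direction, against 3.07%. All 8 passed the minimum mean of 0.5 events per library, and their median log2 ratio was 0, as it was over all tested genes. By limma on log2 events 0 of the 8 genes were called (Benjamini-Hochberg adjusted p under 0.05), against 0.638% of tested genes. At an unadjusted limma p under 0.05 Chrm2 passed, 1 of the 8, against 3.19% of tested genes.

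**Figure D1:**
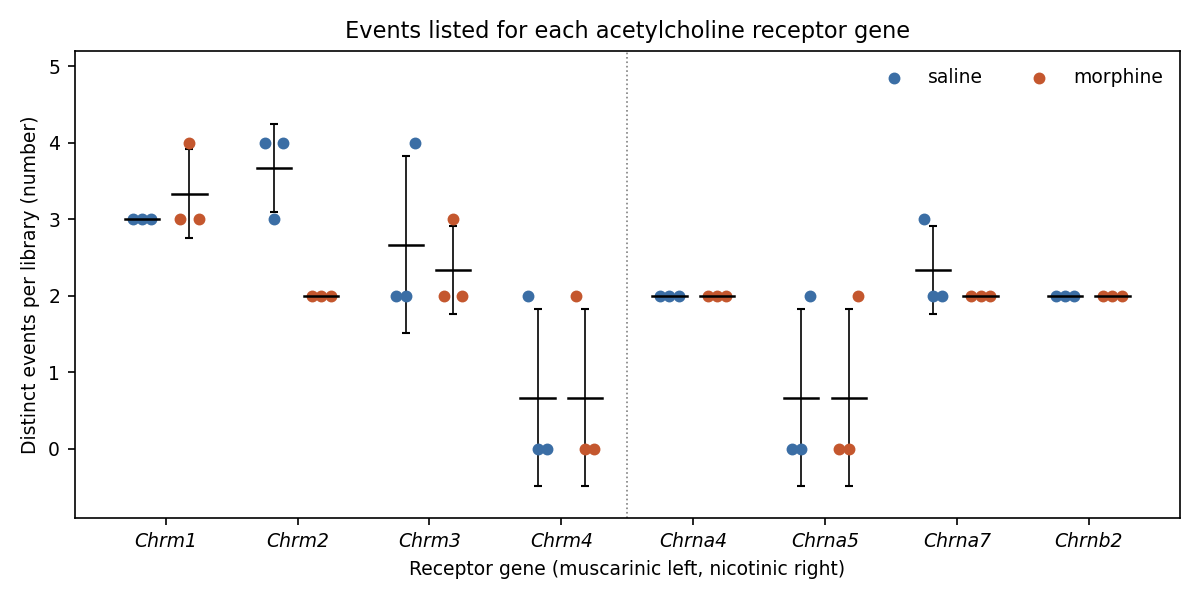
Distinct events per library (vertical axis, number) for each receptor gene (horizontal axis), with 1 point per library, blue for saline and orange for morphine; short black lines are group means and error bars the SD over 3 libraries. Chrm2 shows 3 or 4 events in the saline libraries and 2 in the morphine libraries, while Chrna4 and Chrnb2 stand at 2 in all 6.

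Chrm2, on chromosome 6 from 36388084 to 36528414 on the plus strand, was listed with 4, 3 and 4 events after saline and 2, 2 and 2 after morphine. The saline values were all above the morphine values. The means were 3.67 ± 0.577 and 2 ± 0 (log2 ratio -0.74; exact two-sided permutation p = 0.1, the smallest that 3 against 3 allows, and 1 after Benjamini-Hochberg adjustment over all tested genes). Limma gave a log2 fold change of -0.73 with an SE of 0.115 and an adjusted p of 0.276. Leaving out saline replicate 2 made both groups free of spread and gave a limma log2 fold change of -0.85 with an adjusted p of 3.39e-06. Over the 17 alternatives on which limma was run the adjusted p ran from 3.39e-06 to 0.601. Limma was not run on annotated events alone, where Chrm2 had 2 events in every library. The difference was not called with all 6 libraries.

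All of the Chrm2 difference lay in its first exons. The last exon, which begins at 36523170 and holds the coding sequence shown above, was listed in all 6 libraries, from the same site to the same end at 36528414. The annotated first exon, from 36388084 to 36388366, was listed in all 3 saline libraries and in morphine replicate 6. Its listed start is the RefSeq start, the first capital of the promoter. Saline replicates 1 and 3 also listed 2 exons with the same start and other ends. One of 237 bases ends at 36388320, inside the annotated exon, and the other of 1439 bases runs through the second annotated exon to 36389522. Saline replicate 2 listed an exon of 465 bases from 36387611 to 36388075, which covers most of the promoter and ends 9 bases before the RefSeq start. These 3 exon ends are not in the annotation. The 6 bases that follow 36388075 are gtgagg and those that follow 36388320 are gtctcc, so both begin with the GT of a usual 5' splice site, and bases past 36389522 are not in the sequences used here.

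In morphine replicates 4 and 5 the first exon listed under Chrm2 lay on the opposite strand. It ran from 36388156 to 36388255 in one library and to 36388257 in the other, within the annotated Chrm2 exon. Its splice site at 36388156 is annotated for the lincRNA gene 9330158H04Rik, which runs on the minus strand from 36209620 to 36390191 and overlaps the start of Chrm2 by 2108 bases. That lincRNA gene was itself listed with 0 events in all 6 libraries. The sources used here do not say whether the libraries keep strand. Without strand, unspliced reads of the 2 genes cannot be told apart where the genes overlap. Counting gene-strand events alone, a choice made after seeing the data, gave Chrm2 4, 3 and 4 events after saline and 1, 1 and 2 after morphine (log2 ratio -1.18). Counting only events whose splice sites are annotated for any gene gave 2 in every library, the opposite-strand exon included, and the difference was then 0. An event opposite to the gene strand was listed at least once for 9.38% of tested genes, and 3.35% of all distinct first exons are of this kind.

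**Figure D2:**
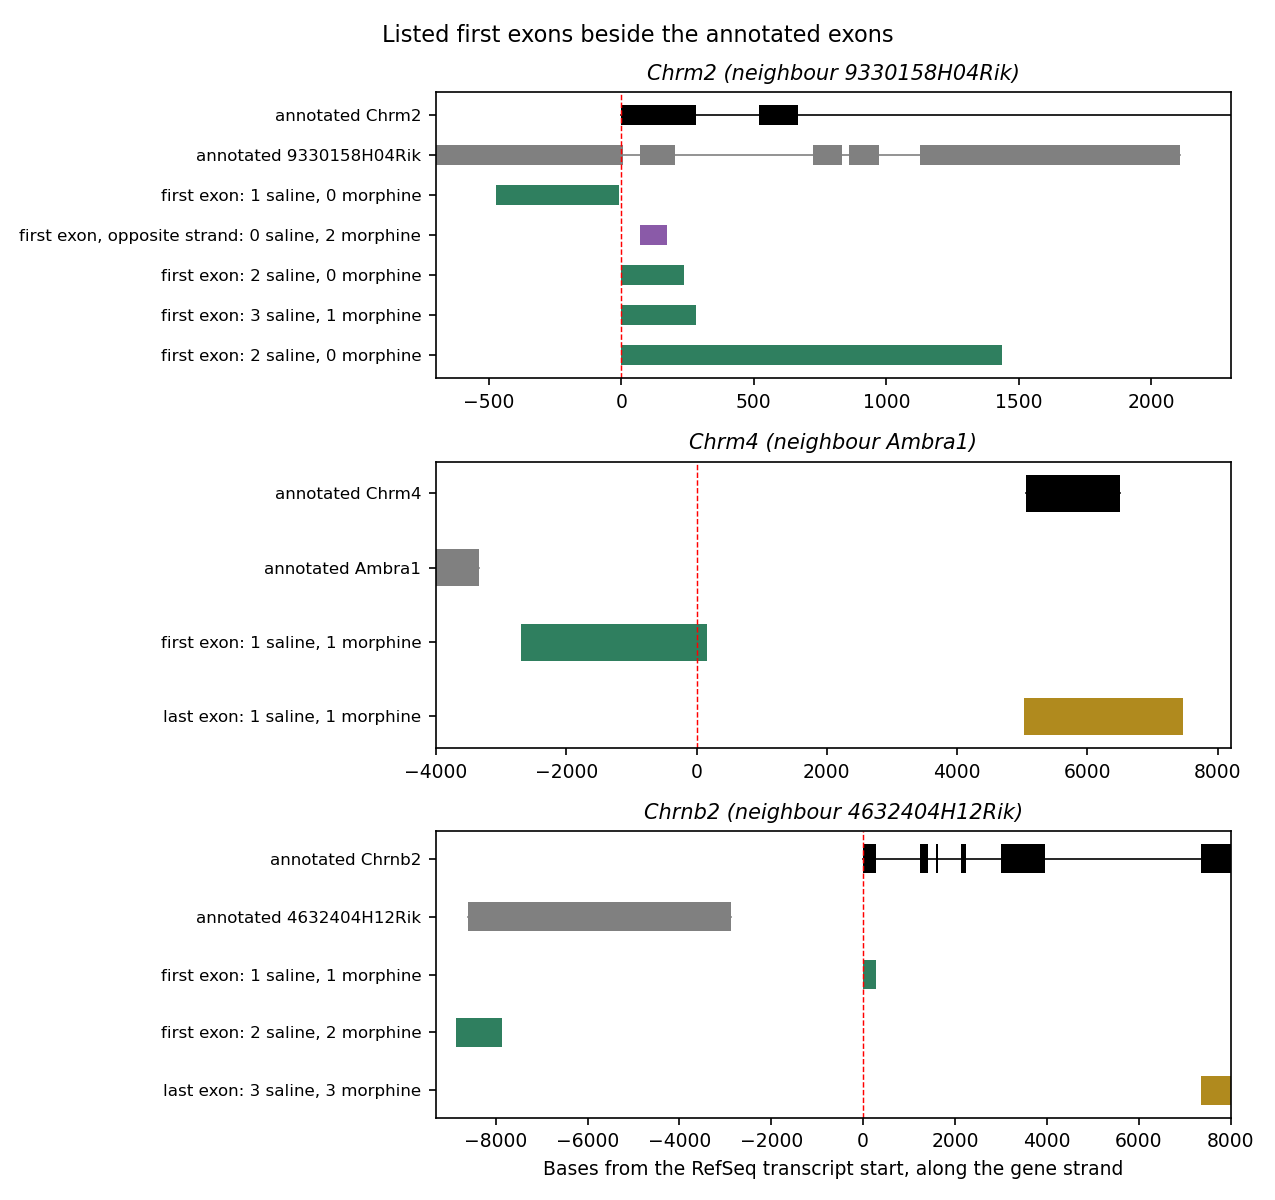
Maps of listed exons around the starts of Chrm2, Chrm4 and Chrnb2; the horizontal axis is bases from the RefSeq transcript start (red dashed line) along the gene strand, black and grey boxes are annotated exons of the gene and its neighbour, and coloured boxes are listed first exons (green, purple on the opposite strand) and last exons (ochre) at their widest listed extent. Chrm2 has 3 first exons from the RefSeq start with different ends, and the upstream Chrnb2 exon, listed in 2 saline and 2 morphine libraries, ends at a splice site of the neighbouring lincRNA gene and at its widest begins upstream of that gene.

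Chrm1, on chromosome 19 from 8663789 to 8683587 on the plus strand, had 3, 3 and 3 events after saline and 3, 4 and 3 after morphine (3 ± 0 and 3.33 ± 0.577; exact permutation p = 1, n = 3). Only morphine replicate 5 stood apart. The exon from 8664909 to 8665000, 92 bases of 5' untranslated sequence, was listed as alternatively skipped in all 6 libraries, between the annotated first exon ending at 8664457 and the coding exon beginning at 8677862. Chrm1 transcripts with and without this exon were thus assembled in every library of both groups. Morphine replicate 5 added a first exon from 8664322 to 8665000, which spans the intron between the first and second annotated exons. That library also listed the last exon from 8682016, inside the 3' untranslated part of the annotated last exon, where the other 5 libraries listed it from 8677862. The 6 bases before 8682016 are gggaag, which end with the AG of a usual 3' splice site. The skipping event of the same library uses the site at 8677862, so that site was assembled there too.

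Chrm3, on chromosome 13 from 9875486 to 10360847 on the minus strand, had 2, 2 and 4 events after saline and 2, 3 and 2 after morphine (2.67 ± 1.15 and 2.33 ± 0.577; exact permutation p = 1, n = 3). The groups overlapped at 2 events, which are the annotated first exon with its splice site at 10360264 and the coding last exon from 9879017, both listed in all 6 libraries. The other events lay in single libraries. Saline replicate 3 listed an exon from 10228464 to 10228621 as alternatively skipped, and morphine replicate 5 listed a first exon from 10228464 to 10228596. The splice site at 10228464 is not in the annotation and was thus listed in 1 library of each group, under different event types. Saline replicate 3 also listed a last exon from the annotated splice site 10028499 to 10025935, which stops short of the coding exon.

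Chrm4, on chromosome 2, had 2, 0 and 0 events after saline and 2, 0 and 0 after morphine (0.667 ± 1.15 in both; exact permutation p = 1, n = 3). Listed libraries were thus saline replicate 1 and morphine replicate 4. GENCODE M21 gives Chrm4 as 1 exon from 91927249 to 91928688 on the plus strand. Of the protein-coding genes annotated without any spliced transcript 10.1% (135 of 1331) were listed in at least 1 library, against 75.5% of those with a spliced transcript. Both libraries listed the same pair of unannotated splice sites, a first exon ending at 91922343 and a last exon beginning at 91927217, 32 bases before the start codon. The RefSeq start at 91922189 lies inside that first exon, whose listed start, 91919490 or 91919515, is further upstream. In morphine replicate 6 the site at 91927217 was listed under Ambra1, an autophagy regulator gene that lies upstream on the same strand and ends 8399 bases before the annotated Chrm4 start. The Chrm4 coding exon was thus assembled in saline replicate 1 and morphine replicate 4. In morphine replicate 6 its splice site was listed under another gene's name, and the extent of that exon is not given here.

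Chrna4, on chromosome 2 from 181018380 to 181043546 on the minus strand, had 2 events in all 6 libraries. They were the same 2 events throughout, the annotated first exon from 181039305 to 181038992, which holds an annotated start codon, and the last exon from 181024879 shown above. Its other annotated start, at 181043546, was listed in 0 libraries. A count of 2 in all 6 libraries was found for 18.5% of tested genes.

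Chrnb2, on chromosome 3 from 89746195 to 89764632 on the minus strand, also had 2 events in all 6 libraries, but these were not the same 2. The last exon from 89757270 was listed in all 6. The annotated first exon, from 89764632 to 89764343, was listed in saline replicate 1 and morphine replicate 6. Saline replicates 2 and 3 and morphine replicates 4 and 5 listed instead a first exon that ends at 89772502 and begins between 89773240 and 89773489. That exon lies wholly upstream of the promoter shown above, and its splice site is annotated for the lincRNA gene 4632404H12Rik, which lies on the same strand and ends 2878 bases before Chrnb2. The same site was listed under the lincRNA gene in saline replicates 1 and 2 and morphine replicate 5. The libraries of each group thus split in the same numbers, 1 with the annotated first exon and 2 with the upstream one.

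Chrna7, on chromosome 7 from 63098692 to 63212569 on the minus strand, had 3, 2 and 2 events after saline and 2, 2 and 2 after morphine (2.33 ± 0.577 and 2 ± 0; exact permutation p = 1, n = 3). The annotated first exon with its splice site at 63212422 and the last exon from 63099742 were listed in all 6 libraries. Saline replicate 1 alone added a last exon from 63141795, a splice site annotated in a shorter non-coding transcript of the gene. A transcript that stops there lacks most of the coding exons.

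Chrna5, on chromosome 9 from 54980880 to 55007779 on the plus strand, had 0, 0 and 2 events after saline and 0, 0 and 2 after morphine (0.667 ± 1.15 in both; exact permutation p = 1, n = 3). Saline replicate 3 and morphine replicate 6 listed the same last exon from 55006414, but different first exons, both at internal coding exons whose sequence is given above. One began at 55000451, 1 base before the annotated exon, and the other at 55002418, inside an annotated exon. The RefSeq starts at 54980880 and 54981488 were listed in 0 libraries, and both listed transcripts thus begin inside the coding sequence. Chrna3, the neighbouring subunit gene on the other strand, was listed with 2 events in all 6 libraries.

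Over the 6 libraries the 8 genes held 29 distinct events, of which 16 were first exons, 11 last exons and 2 skipped exons. Events coded as intron retention or alternative exon ends, which make up 19.4% and 13.3% of all distinct events in the series, numbered 0. Any event so coded was listed for 39.6% of tested genes. The codes do not capture every such form. First exons that ran through an annotated intron (Chrm1 and Chrm2), or shared a start but had different ends (Chrm2), were coded as first exons. The share of events listed in all 6 libraries was 10 of 29, or 34.5%, against 20.9% over the series. Listed in 1 library were 9 of 29, or 31.0%, against 50.7% over the series. All 10 of the constant events are annotated in their gene. Not annotated in their gene were 9 of the 18 muscarinic events, 4 of them in Chrm2 and 2 in Chrm4, and 1 of the 11 nicotinic events. Of these 10, 2 use a site annotated for another gene. Annotated in their gene were thus 19 of the 29 events, while 65.3% of all listed events in the series match exons of any gene. Of the first exons 4 of 16 were listed in all 6 libraries, or 25.0%, against 29.8% over the series, and of the last exons 5 of 11, or 45.5%, against 32.1%. Listed in all morphine and 0 saline libraries were 0 of the 29 events, against 0.321% over the series, and in all saline and 0 morphine libraries also 0, against 0.345%.

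**Figure D3:**
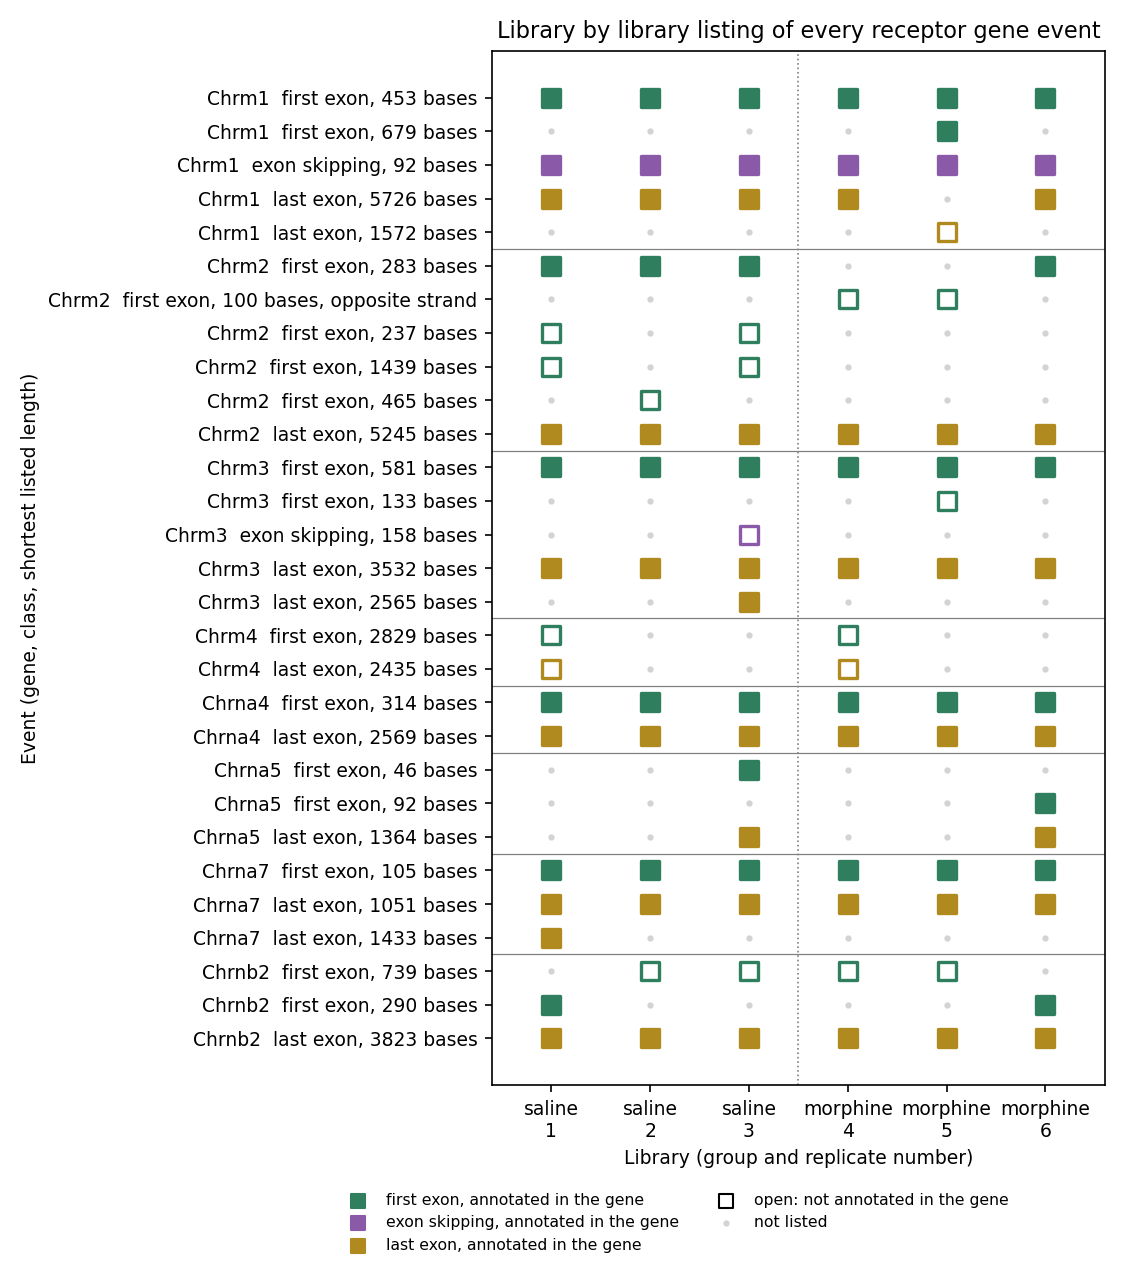
Listing of each of the 29 distinct events (rows, by gene and class, with the shortest listed length in bases) in each library (columns); filled squares are annotated in the gene, open squares are not, and small grey dots mark libraries that did not list the event. The 10 rows filled across all 6 libraries are annotated, and each open Chrm2 row is marked in libraries of 1 group alone.

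The mean number of events per library ran from 0.667 for Chrm4 and Chrna5 through 2 for Chrna4 and Chrnb2, 2.17 for Chrna7, 2.5 for Chrm3 and 2.83 for Chrm2 to 3.17 for Chrm1. Neighbours in this order differed by less than 1 event except between Chrm4 or Chrna5 and the next genes. The median over the 8 genes was 2.08, against 2.67 over all tested genes. The genes whose counts were closest to those of Chrm2 over the 6 libraries, by the sum of absolute differences, were B3gat3, Gclm and Mgrn1 at a distance of 1 event, tied with 13 more among 16 genes. For Chrm1 the counts of 31 genes were identical, among them Agpat4 and Asb1.

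The other genes of the cholinergic pathway were read from lists. Of 13 further receptor subunit genes 8 were listed and 6 passed the minimum mean, and all 6 overlapped between the groups. Chrna3 had 2 events in all 6 libraries, and Chrm5, whose product is the muscarinic receptor of dopamine neurons, had 2 in every library but morphine replicate 6, which listed 0. Chrna6 and Chrnb3, subunit genes of dopamine neurons, had 0 in all 6, as did Chrna9, Chrnd and Chrng. Of 9 genes for acetylcholine synthesis, transport and breakdown 8 were tested and all 8 overlapped. Ache, which encodes acetylcholinesterase, had 4, 2 and 3 events after saline and 5, 3 and 8 after morphine, and Slc44a1, a choline transporter gene, had 4 in all 6 libraries. Chat, which makes acetylcholine, had 5, 2 and 2 after saline and 5, 4 and 3 after morphine. All 10 receptor chaperone and Ly6 modulator genes overlapped, among them Ly6h (6, 6 and 7 against 7, 5 and 5) and Lypd6b (7, 5 and 10 against 4, 3 and 6).

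Downstream of the muscarinic receptors, all 10 Gq signalling genes overlapped. Plcb4, a phospholipase C gene, had 10, 4 and 4 events after saline against 6, 6 and 7 after morphine. Of 13 Gi signalling genes 12 overlapped. Kcnj3, which encodes a G protein-gated potassium channel subunit that Gi-coupled receptors open, had 4, 4 and 4 events after saline and 3, 3 and 3 after morphine (log2 ratio -0.36; exact permutation p = 0.1, n = 3). Kcnj3 was the only one of 47 tested genes of these 5 lists whose groups did not overlap, or 2.13%, against 3.07% of all tested genes.

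**Figure D4:**
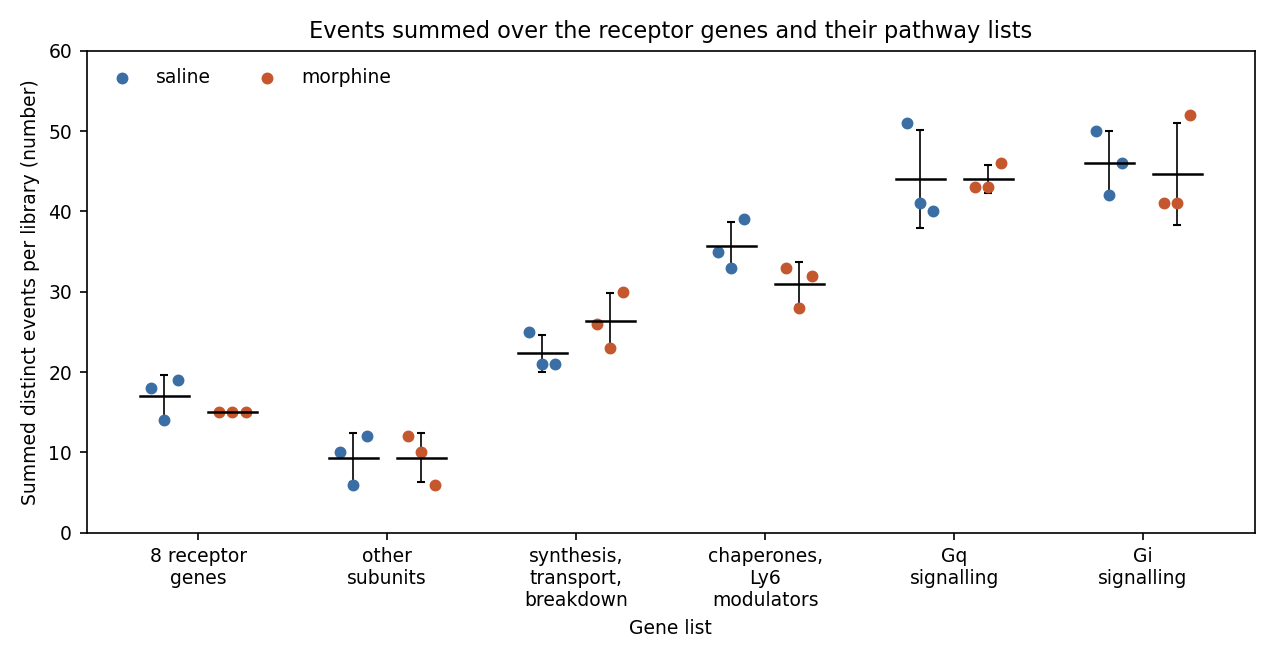
Distinct events summed over the 8 receptor genes and over 5 lists of cholinergic pathway genes (horizontal axis), per library (vertical axis, number), with saline in blue and morphine in orange; black lines are means and error bars the SD over 3 libraries. Saline and morphine points overlap in all 6 columns.

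Cell type markers were read as well. Their listing cannot identify the tissue, since 75.5% of protein-coding genes with a spliced transcript were listed. All 13 medium spiny neuron markers and 7 of 8 cholinergic interneuron markers were listed, with Rgs9 at 4, 4 and 4 events after saline and 5, 6 and 6 after morphine as the only one of 20 tested whose groups did not overlap, against 3.07% of all tested genes. The unlisted gene was Slc18a3, which encodes the vesicular acetylcholine transporter. The cholinergic markers summed to 23, 20 and 22 events after saline and to 27, 22 and 20 after morphine, with overlap. Markers of cortical or other glutamatergic neurons, 6 of 6, were listed in both groups at sums of 12 to 13. All tested markers of these neurons, other interneurons, astrocytes, oligodendrocytes, microglia and endothelium overlapped between the groups. The 5 ependyma and choroid plexus markers summed to 20, 27 and 22 events after saline and to 14, 16 and 17 after morphine, without overlap. Among them Ccdc39 had 12, 19 and 14 against 8, 9 and 11, Tmem72 had 2, 2 and 2 against 0, 0 and 0, and the other 3 had 2 or 3 in every library. Their part in the Chrm2 difference was not tested.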

How the data were processed

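RNA-seq libraries of nucleus accumbens were compared in 2 groups, 3 saline and 3 morphine, taken from the titles. Each deposited file, per the file headers, is a catalogue of events with 20 type codes, a gene ID, positions and a pattern of splice sites in transcripts the authors assembled. Its column headed fpkm holds whole numbers from -24 to 0 and was not used as expression. The sources used here give no assembler, event caller, build or depth, so no counting interval was computed. The design text describes the screening of lncRNAs, not these catalogues.

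Distinct events were rows with the same gene ID, type, pattern and strand, counted 1 time per library, without the types ending in OFF, the counterpart of the ON codes. Symbols came from GENCODE M21 for 15815 of 15939 IDs. Events, not expression, were tested, by limma 3.58.1 (R 4.3.3; lmFit, eBayes with trend) on log2(events + 0.5) for 15040 genes with a mean of at least 0.5, with Benjamini-Hochberg adjustment, beside exact permutation tests of each gene. Log2 ratios are of (mean + 0.5). The limma fit was tested on simulated Poisson counts, which do not copy the identical counts that many real genes have within groups. Promoters came from RefSeq and exon sequence from GENCODE M21 transcripts.

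The genes and lists were chosen with earlier results of these data known. Named were the 8 genes whatever their values, each non-overlapping gene of a list or else its 2 members with the most events, genes closest to Chrm2 and Chrm1, and events that were constant, unannotated or in 1 group. Genes outside this rule (Chat, Chrm5, Chrna6, Chrnb3, Chrna9, Chrnd, Chrng, Slc18a3, Ambra1 and both lincRNA genes) and single-library events were named after their values were seen. Some genes that the rule selects are not reported here. Alternatives varied the events counted, pseudocount, filter, scaling and libraries.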

Additional observations from a re-analysis of the deposited data

How the results depend on the processing

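No paired analysis was possible because the saline libraries are numbered 1 to 3 and the morphine libraries 4 to 6, so the groups share no replicate number. Chrm2 kept saline above morphine in every library in 13 of 14 alternatives. Many of these could not have changed that: leaving out 1 library cannot make separate groups overlap. Chrm2 has first and last exon events alone, so leaving out the other classes kept its counts the same. With annotated events alone 0 of the 8 genes had saline above in every library, and the Chrm2 log2 ratio was 0. Its saline counts then held no unannotated exon end. Its morphine counts still held the opposite-strand exon in replicates 4 and 5, annotated for 9330158H04Rik. Morphine was above in every library for 0 of the 8 genes in all 14 alternatives. The log2 ratio of the summed events was -0.18 and ran from -0.3 to -0.07. Limma, which was not run on annotated events alone, called 0 of the 8 genes in every alternative except Chrm2 without saline replicate 2. The Chrm3 limma log2 fold change of -0.12 ran from -0.28 to 0.16 when 1 library was left out, and turned positive without saline replicate 3 (adjusted p = 1 throughout), the saline library with its 2 extra saline events. Over all tested genes, non-overlapping genes numbered 462, 256 with first and last exons alone, 818 with equal totals, which breaks ties between whole numbers, and 961 to 1102 when 1 library was left out, where 3 are compared with 2. Limma called 96 genes, 87 of them with identical counts within both groups, and 250 to 285 when 1 library was left out. The cause of the limma change was not tested. Unknown depth limits every count: an unlisted event may have been missed. The equal means of Chrm4 and of Chrna5 rest on 1 library per group (saline replicate 1 and morphine replicate 4, and saline replicate 3 and morphine replicate 6), and their log2 ratio of 0 ran from -1.22 to 1.22 when 1 library was left out, with overlap throughout.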
